A study of Mus musculus with 11 samples.

Results

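The 45 imprinted genes described here are mouse genes chosen by name as known members of imprinted domains. A gene was kept where the platform annotation gave it at least 1 transcript cluster (the array's unit for a gene or part of a gene) with no other gene symbol. That left 39 of the 45 genes, each with 1 cluster, among 19935 genes measured in this way. Snrpn, Ube3a and Gnas were found only in clusters that carry several symbols, and H19, Kcnq1ot1 and Zrsr1 are not analysed here. Of the 39 genes, 21 are usually expressed from the paternal allele, 15 from the maternal allele, and for Blcap, Grb10 and Copg2 the allele depends on the tissue or the transcript.

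Imprinted genes are expressed mainly from the copy inherited from one parent. The choice is set by DNA methylation laid down in egg or sperm at differentially methylated regions (DMRs), which is kept through cell division by DNA methyltransferases and by zinc finger proteins such as ZFP57. A maternal germline DMR at a gene's own promoter silences the maternal copy, so that the paternal copy alone is normally active. In cultured embryonic stem cells (ESCs) these marks are known to be less stable than in the embryo. The arrays measure RNA from both copies together and do not show which copy it came from.

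The study measured 11 one-colour Affymetrix whole-transcript arrays of mouse ESCs that lack the BMP receptor gene Bmpr1a (Bmpr1a-/-, called mutant below) or of the wild-type E14 line (control). The groups were mutant cells after 3 days in N2B27, a serum-free differentiation medium (n = 3), control cells after 3 days in N2B27 (n = 3), mutant cells in ESC medium (n = 2, numbered 2 and 3) and control cells in ESC medium (n = 3). The labels name 3 mutant lines, Fr88, Fr124 and C1-6, without saying which was on which array, and they do not state whether arrays of 1 group are separate cultures. The p-values therefore rest on spread among arrays that may be technical. The deposited values are on a log2 scale and were centred gene by gene on an unstated baseline, so a value of 0 has no absolute meaning, and values can be compared between arrays of 1 gene but not between genes.

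Bmpr1a itself read 0.15, -0.14 and -0.05 in mutant cells in N2B27, against 0.61, 0.68 and 0.76 in control cells in N2B27. It read -0.03 and 0.00 in mutant cells in ESC medium, against 0.37, 0.16 and 0.25 in control cells in ESC medium. The groups were apart in both media, and the difference passed the test in N2B27 (-0.70, adjusted p = 0.00211) and not in ESC medium (-0.27, adjusted p = 0.145). The genotypes also differed on the sex chromosomes: the Y-linked Eif2s3y was lower in mutant cells by a log2 difference of -4.20 in N2B27 and -4.18 in ESC medium, and Xist, the RNA that silences an X chromosome, was higher by 4.08 and 0.96. Genes of chromosome 8 had a median log2 difference between mutant and control of 0.17 in N2B27 and 0.12 in ESC medium. No measured imprinted gene lies on chromosome 8, X or Y, and on the chromosomes that hold them the median over all genes lay between -0.02 and 0.03 in N2B27 and between -0.03 and 0.00 in ESC medium. Genotype and cell line cannot be told apart in this design, and the part of the line or of its sex chromosomes in the values below was not tested. Of 8 ESC markers, 3 were higher in mutant cells in N2B27 (among them Zfp42 and Pou5f1) and 1 in ESC medium. Zfp42 itself lies on chromosome 8. Of 7 measured neural markers 2 were higher in N2B27 and 1 in ESC medium, and of 8 fibroblast markers 1 and 3 were lower. Of 8 trophoblast markers Tfap2c and Krt8 were higher in mutant cells in N2B27 and Krt18 and Krt8 lower in ESC medium. Krt8 and Krt18 had positive interactions. Of 8 endoderm markers Dab2 was lower in N2B27, and none of 8 mesoderm markers was called between genotypes. Over all genes 4.1% were called higher and 1.64% lower in N2B27, and 3.09% higher and 3.05% lower in ESC medium. In these bulk samples fewer cells of a type and less RNA per cell cannot be told apart, and the part of cell composition was not tested.

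After 3 days in N2B27, 12 of the 39 imprinted genes had higher values and 6 had lower values in mutant than in control cells (limma over all 19935 genes, Benjamini-Hochberg adjusted p under 0.05). That is 46.2% of them, where the same comparison called 5.74% of all genes, 4.1% higher and 1.64% lower. With the array number as a block 11 were higher and 5 lower: Klf14, Mcts2, Mkrn3 and Slc22a18 lost their calls, and Copg2 and Mest gained one. In ESC medium 5 were higher and 4 lower, 23.1% of them, where 6.14% of all genes were called, 3.09% higher and 3.05% lower. Over all genes 615 were higher and 609 lower in ESC medium, a split that became 326 higher and 165 lower after quantile normalization and 263 higher and 471 lower without the genes of chromosomes 8, X and Y. The median log2 difference over the 39 genes was 0.18 in N2B27 and -0.02 in ESC medium, beside -0.00 and -0.01 over all genes. Counted by groups that did not overlap, 17 imprinted genes lay higher and 8 lower in mutant cells in N2B27 (11.7% and 8.53% of all genes did), and 10 lay higher and 12 lower in ESC medium (17.7% and 21.7% of all genes).

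Split by parental allele, 10 of the 21 paternally expressed genes were higher in mutant cells in N2B27 and 1, Igf2, was lower, with a median log2 difference of 0.44. In ESC medium 5 of the 21 were higher and 1 was lower, with a median of 0.00. Of the 15 maternally expressed genes, Rian and Meg3 were higher and Cdkn1c, Phlda2, Slc22a18 and Klf14 lower in mutant cells in N2B27 (median -0.09), while in ESC medium Phlda2 and Cdkn1c were lower (median -0.07). Of the 10 measured genes with a maternal germline DMR at their own promoter, Nnat, Plagl1, Impact and Mcts2 were higher in both media, Peg10 in N2B27 and Mest in ESC medium, with medians of 0.56 in N2B27 and 0.31 in ESC medium. None of these 10 was called lower by limma in either medium without a block or array weights. Peg10 was called lower in ESC medium with the array number as a block (adjusted p = 0.0142) and with array weights (adjusted p = 0.0446). At an unadjusted p under 0.05, 10 were higher and 0 lower in N2B27, where 11.7% of all genes were higher and 7.68% lower at that p. In ESC medium 5 were higher and 1, Peg10, lower at that p, where 7.75% of all genes were higher and 10% lower. These counts depend on how the set of 10 was drawn. The set holds Inpp5f, of which only 1 variant is imprinted, and the 1 value per gene does not separate variants. The set leaves out Usp29, whose promoter window overlaps that of Peg3, and Sgce, which starts beside Peg10. Usp29 differed by 0.06 in N2B27 and -0.19 in ESC medium, and Sgce by 0.40 and -0.19. Neither was called between genotypes, and Usp29 was lower in ESC medium at the unadjusted p. Nnat, Plagl1, Impact and Mcts2 (higher) and Igf2, Grb10, Phlda2 and Cdkn1c (lower) were called in the same direction in both media. These 8 are 44.4% of the imprinted genes called in N2B27 and 88.9% of those called in ESC medium, and the corresponding shares of all genes called were 23.3% in N2B27 and 21.7% in ESC medium. Over all genes tested 266, or 1.33%, were called in the same direction in both media, 1.03% higher and 0.306% lower. With the array number as a block Mcts2 was no longer called in N2B27, and Mest was called higher in both media.

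**Figure D1:**
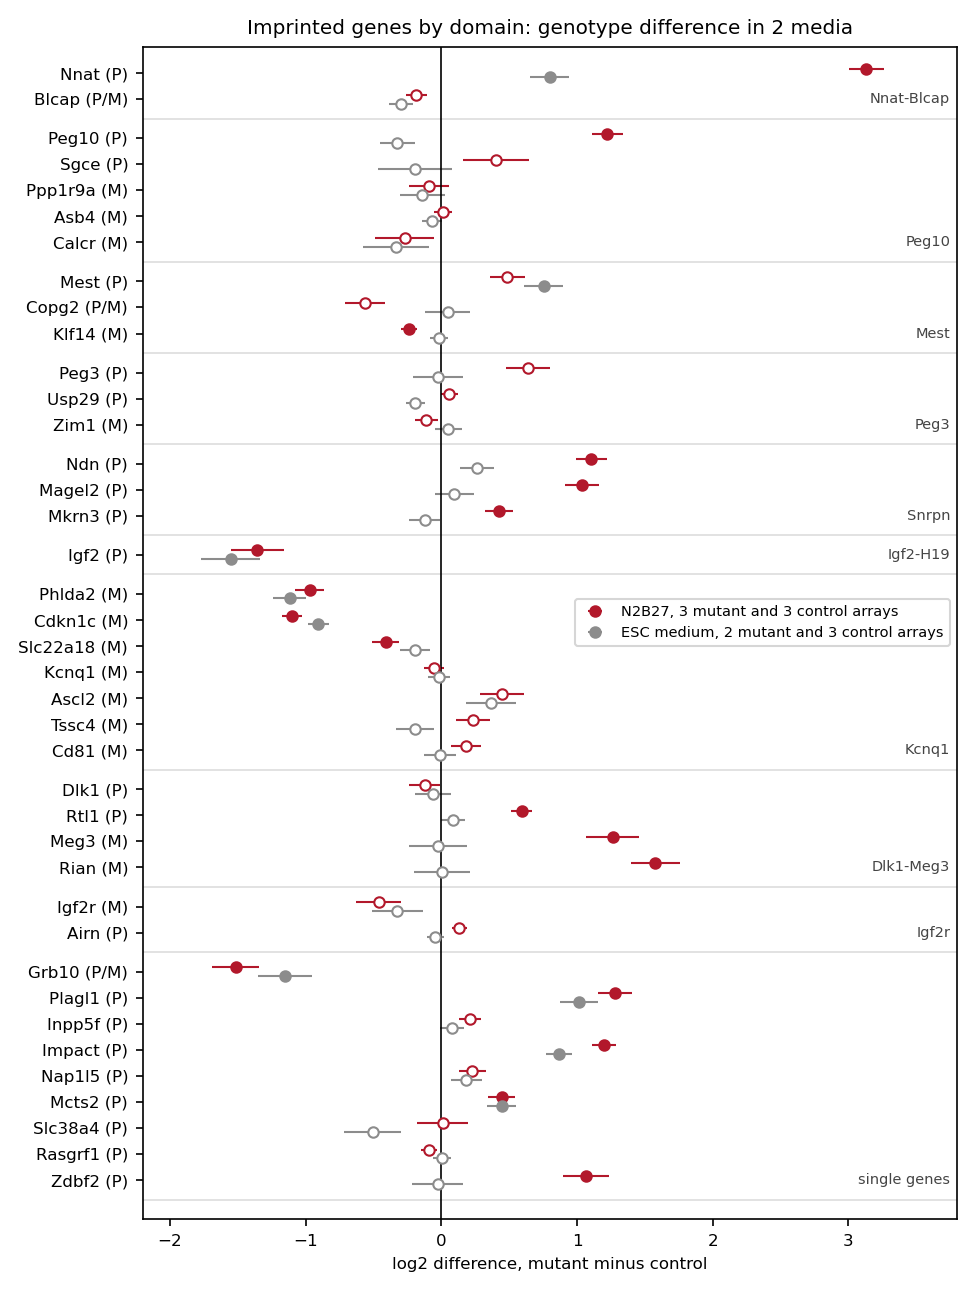
Log2 difference of mutant minus control cells (horizontal axis) for the 39 measured imprinted genes, grouped by domain, in N2B27 (red) and in ESC medium (grey). P, M and P/M mark genes expressed from the paternal allele, the maternal allele, or either by tissue or transcript. Bars are standard errors of the fit, and filled points passed the adjusted p. Nnat stands farthest to the right at 3.13 in N2B27, and Igf2 and Grb10 farthest to the left at -1.55 in ESC medium and -1.52 in N2B27.

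The promoters of Nnat, Plagl1 and Mcts2 are printed because these genes carry a maternal germline DMR of their own and were higher in mutant cells in both media. Each window is the 250 bases before the annotated start, read from RefSeq on GRCm38.p6, plus strand: chr2:157559828-157560077 for Nnat, chr10:13090582-13090831 for Plagl1 and chr2:152686898-152687147 for Mcts2. Capitals mark the letters TGCCGC, the core recognised by ZFP57 when methylated, searched on both strands, so that GCGGCA is the same match on the other strand.
Nnat: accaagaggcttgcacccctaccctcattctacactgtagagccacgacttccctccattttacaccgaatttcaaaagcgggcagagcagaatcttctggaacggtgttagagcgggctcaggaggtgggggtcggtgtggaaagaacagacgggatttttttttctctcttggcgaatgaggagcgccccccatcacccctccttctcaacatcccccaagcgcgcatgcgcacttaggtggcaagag
Plagl1: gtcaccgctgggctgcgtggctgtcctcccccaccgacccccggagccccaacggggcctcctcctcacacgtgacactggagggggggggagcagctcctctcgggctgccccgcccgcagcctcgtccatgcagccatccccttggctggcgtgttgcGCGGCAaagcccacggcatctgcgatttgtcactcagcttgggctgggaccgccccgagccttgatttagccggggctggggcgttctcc
Mcts2: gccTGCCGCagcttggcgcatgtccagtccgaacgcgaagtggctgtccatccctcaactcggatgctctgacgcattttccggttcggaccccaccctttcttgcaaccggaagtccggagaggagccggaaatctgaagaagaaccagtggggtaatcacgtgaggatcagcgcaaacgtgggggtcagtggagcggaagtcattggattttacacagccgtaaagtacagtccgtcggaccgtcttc
The Nnat window holds 12 CpG dinucleotides and no match, the Plagl1 window 19 and 1 match, and the Mcts2 window 20 and 1 match. Over all 32851 promoter windows of this length the median was 6 CpGs and 8.68% held a match. Of the 45 windows of imprinted genes, some of which have several, 10 held a match (22.2%). They were 5 of 10 windows at genes with a germline DMR of their own and 5 of the other 35 (14.3%). The Mest windows with a match overlap almost wholly. Another Mest window, from chr6:30733256, lies upstream of those and holds no match. Whether each window lies within the DMR of its gene was not tested, and only 1 variant of Inpp5f is imprinted. By gene, a match was held by 4 of the 8 that have such a DMR and a window. The Usp29 window, counted among the 35, overlaps that of Peg3. A match describes letters in the window and is no evidence that a protein binds there.

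Nnat, neuronatin, encodes a small membrane proteolipid of developing brain and of endocrine cells, and lies within an intron of Blcap. It read 1.38, 1.25 and 1.48 in mutant cells in N2B27, against -1.88, -1.80 and -1.60 in control cells in N2B27. In ESC medium it read -1.43 and -0.88 in mutant cells, against -1.98, -1.93 and -1.96 in control cells. Every mutant array was above every control array of the same medium, and the mutant arrays in N2B27 were above all others. The log2 difference was 3.13 ± 0.13 in N2B27 (SE, adjusted p = 2.05e-06) and 0.80 ± 0.14 in ESC medium (adjusted p = 0.0103). The call in ESC medium was lost without mutant array 3 (0.52, adjusted p = 0.0628) and with a trended and robust prior (adjusted p = 0.0722), and after quantile normalization the difference there was 1.53 (adjusted p = 0.00386). Blcap, the host gene, differed by -0.18 in N2B27 and -0.30 in ESC medium and passed the test in neither (adjusted p = 0.229 and 0.0823). In ESC medium Blcap passed when the spread came from the ESC medium arrays alone (adjusted p = 0.0477) and with array weights (0.0259).

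Plagl1 encodes a zinc finger transcription factor that restrains cell proliferation. It read 0.39, 0.57 and 0.27 in mutant cells in N2B27, against -0.79, -0.77 and -1.04 in control cells in N2B27. It read 0.33 and 0.06 in mutant cells in ESC medium, against -0.91, -0.97 and -0.59 in control cells in ESC medium. All mutant arrays lay above all control arrays, whatever the medium. The difference was 1.28 ± 0.13 in N2B27 (adjusted p = 0.000784) and 1.02 ± 0.14 in ESC medium (adjusted p = 0.00262), and both calls held under every alternative. Impact, a regulator of translation through the kinase GCN2, read 0.94, 0.75 and 0.82 in mutant cells in N2B27, against -0.19, -0.49 and -0.42 in control cells in N2B27. In ESC medium Impact read 0.55 and 0.56 in mutant cells, against -0.37, -0.22 and -0.33 in control cells. Its differences of 1.199 ± 0.09 in N2B27 (adjusted p = 0.000107) and 0.86 ± 0.10 in ESC medium (adjusted p = 0.000892) also held under every alternative, with all mutant arrays above all control arrays.

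Mcts2 is a retrogene copy of a translation factor gene that lies in an intron of H13, and the array's probes for it may be shared with its parent copy, which makes its value uncertain. It read -0.12, -0.16 and -0.14 in mutant cells in N2B27, against -0.74, -0.34 and -0.67 in control cells in N2B27. In ESC medium it read 0.57 and 0.53 in mutant cells, against 0.23, 0.08 and 0.02 in control cells. Mutant arrays lay above control arrays in both media, with differences of 0.44 ± 0.10 in N2B27 (adjusted p = 0.028) and 0.44 ± 0.11 in ESC medium (adjusted p = 0.0398). The N2B27 call was lost with the array number as a block (adjusted p = 0.0671), when the spread came from the N2B27 arrays alone (0.0982), without control array 1 (adjusted p = 0.0825) or 3 (0.11) and without mutant array 1 (0.0625) or 3 (0.0611). The ESC medium call was lost without control array 2 (adjusted p = 0.12) or 3 (0.134), mutant array 2 (0.249) or 3 (0.163), after quantile normalization (0.132) and without the genes of chromosomes 8, X and Y (0.0549). H13, a signal peptide peptidase gene whose transcripts are also imprinted, read -0.38, 0.10 and -0.32 in mutant cells in N2B27, against 0.63, 0.66 and 0.62 in control cells in N2B27. In ESC medium H13 read -0.28 and -0.36 in mutant cells, against 0.87, 0.69 and 0.62 in control cells. H13 was thus lower in mutant cells in both media, by -0.84 in N2B27 (adjusted p = 0.004) and -1.04 in ESC medium (adjusted p = 0.00171), while Mcts2 inside it was higher.

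Mest, which encodes an enzyme of the alpha/beta hydrolase fold, read 0.35, 0.40 and 0.30 in mutant cells in N2B27, against -0.02, 0.00 and -0.37 in control cells in N2B27. It read -0.10 and 0.03 in mutant cells in ESC medium, against -0.51, -0.91 and -0.95 in control cells in ESC medium. Here too mutant arrays lay above control arrays in both media. The difference passed the test in ESC medium (0.75 ± 0.14, adjusted p = 0.0138) and missed it in N2B27 (0.48 ± 0.13, adjusted p = 0.0597), where it passed with the array number as a block (adjusted p = 0.0375). The ESC medium call was lost without control array 2 (adjusted p = 0.0539) or 3 (0.0526), without mutant array 2 (0.0825) or 3 (0.117), and after quantile normalization (0.0505). Copg2, a neighbour of Mest that encodes a coatomer subunit, read 0.16, -0.25 and 0.26 in mutant cells in N2B27, against 0.75, 0.45 and 0.66 in control cells in N2B27. The groups were apart and the difference of -0.56 ± 0.15 missed the test (adjusted p = 0.0561), passing with the block (adjusted p = 0.0239), after quantile normalization (0.037) and without mutant array 3 (0.0459). In ESC medium Copg2 read -0.42 and -0.19 in mutant cells, against -0.56, -0.34 and -0.16 in control cells, which overlapped. Klf14, a transcription factor gene of the same domain, was lower in mutant cells in N2B27 by -0.24 ± 0.06 (adjusted p = 0.0431), a call lost with the block (adjusted p = 0.151) and whichever single array of that comparison was left out (adjusted p from 0.0654 to 0.126).

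The 5 members called lower in mutant cells in N2B27 beside Klf14 include regulators of fetal and placental growth. Igf2, a growth factor, read -0.04, -0.15 and 0.00 in mutant cells in N2B27, against 1.47, 0.95 and 1.45 in control cells in N2B27. In ESC medium it read -0.60 and -0.75 in mutant cells, against 1.35, 0.54 and 0.75 in control cells. All mutant arrays lay below all control arrays, with differences of -1.36 ± 0.20 in N2B27 (adjusted p = 0.00464) and -1.55 ± 0.22 in ESC medium (adjusted p = 0.00313). Igf2r, the receptor that removes the growth factor, differed by -0.46 in N2B27 and -0.32 in ESC medium without passing the test (adjusted p = 0.153 and 0.439).

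Phlda2, a maternally expressed gene that limits placental growth, read -0.84, -1.04 and -1.04 in mutant cells in N2B27, against 0.00, -0.23 and 0.22 in control cells in N2B27. It read 0.51 and 0.65 in mutant cells in ESC medium, against 1.76, 1.61 and 1.72 in control cells in ESC medium. Its neighbour Cdkn1c, a maternally expressed cyclin-dependent kinase inhibitor, read -0.83, -0.60 and -0.83 in mutant cells in N2B27, against 0.34, 0.32 and 0.39 in control cells in N2B27. In ESC medium Cdkn1c read -0.09 and -0.13 in mutant cells, against 0.73, 0.87 and 0.80 in control cells. For both genes the genotypes were apart in each medium. Phlda2 was lower by -0.97 ± 0.11 in N2B27 (adjusted p = 0.00139) and by -1.12 ± 0.12 in ESC medium (adjusted p = 0.000824), and Cdkn1c by -1.10 ± 0.07 (adjusted p = 5.42e-05) and -0.91 ± 0.08 (adjusted p = 0.000261). These calls and those of Igf2 held under every alternative.

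The 5 other measured genes of the Kcnq1 domain on chromosome 7 did not all move with Phlda2 and Cdkn1c. Slc22a18, a transporter gene next to them, read -0.35, 0.07 and -0.26 in mutant cells in N2B27, against 0.31, 0.13 and 0.26 in control cells in N2B27, and -0.09 and -0.08 in mutant cells in ESC medium, against 0.14, 0.08 and 0.11 in control cells in ESC medium. Mutant arrays lay below control arrays in both media, and the difference passed in N2B27 alone (-0.41 ± 0.10, adjusted p = 0.0417, against -0.20 and adjusted p = 0.435 in ESC medium). That call was lost with the block (adjusted p = 0.134), when the spread came from the N2B27 arrays alone (0.153) and without control array 1 (0.118), 2 (0.0664) or 3 (0.137) or mutant array 1 (0.0931) or 3 (0.102). Kcnq1, Cd81, Tssc4 and Ascl2 did not pass the genotype test in either medium, with differences from -0.05 (Kcnq1) to 0.45 (Ascl2) in N2B27 and from -0.19 (Tssc4) to 0.37 (Ascl2) in ESC medium. Without mutant array 3, Ascl2 passed in N2B27 (0.64, adjusted p = 0.0218).

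Grb10, an adaptor that dampens insulin and growth factor signalling and is expressed from the maternal copy in most tissues and the paternal copy in neurons, read -0.95, -0.75 and -0.87 in mutant cells in N2B27, against 0.38, 0.77 and 0.83 in control cells in N2B27. In ESC medium it read -0.85 and -0.62 in mutant cells, against 0.00, 0.59 and 0.66 in control cells. All mutant arrays lay below all control arrays. The difference was -1.52 ± 0.18 in N2B27 (adjusted p = 0.00173) and -1.15 ± 0.20 in ESC medium (adjusted p = 0.00756). In ESC medium the call was lost without mutant array 2 (-1.03, adjusted p = 0.0981) and after quantile normalization (adjusted p = 0.0744).

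**Figure D2:**
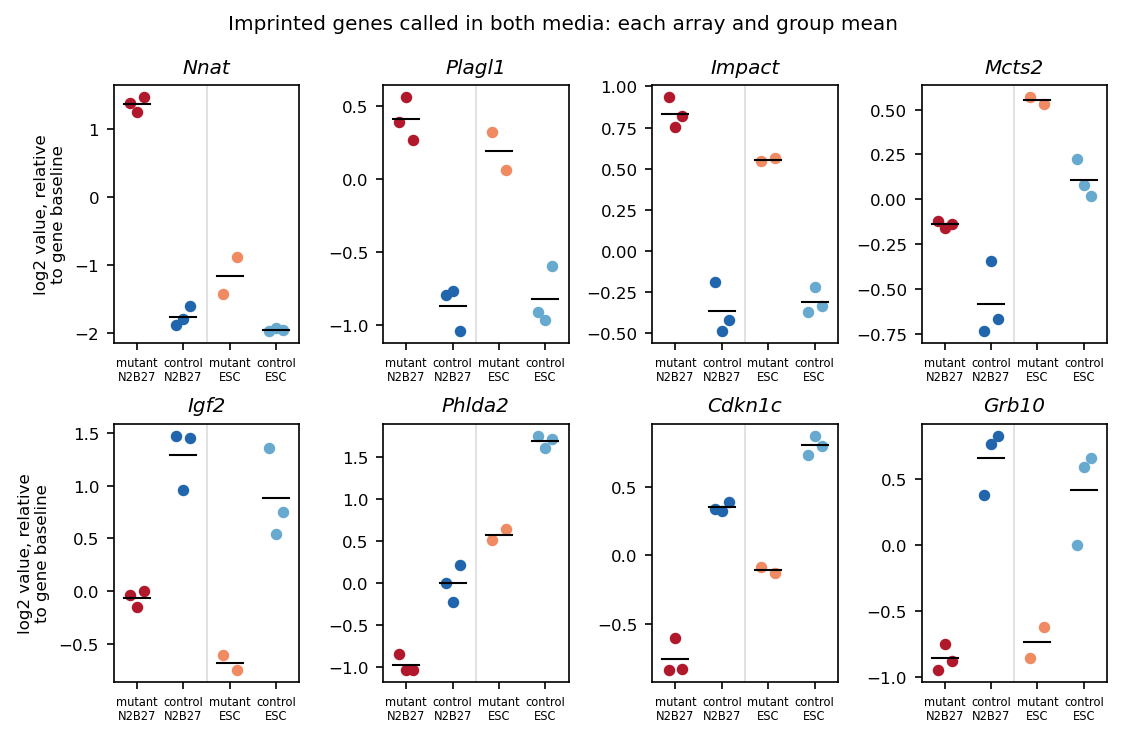
Log2 value relative to each gene's own baseline (vertical axis, 1 panel per gene with its own scale) of the 8 imprinted genes called in the same direction in both media. Points are arrays and black lines group means, in the order mutant N2B27, control N2B27, mutant ESC medium and control ESC medium. In the top row the mutant arrays lie above the control arrays of the same medium, and in the bottom row below them.

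The Dlk1-Meg3 domain on chromosome 12 held 3 called genes of 4 in the genotype comparison in N2B27, while in ESC medium none of the 4 passed the test. It holds the paternally expressed Dlk1 and Rtl1 and the maternally expressed noncoding RNAs Meg3 and Rian, downstream of which lie many small RNA genes read in the same orientation. Rian, the host of small nucleolar RNAs, read 2.15, 1.44 and 1.79 in mutant cells in N2B27, against 0.49, 0.15 and 0.00 in control cells in N2B27. It read -0.01 and 0.35 in mutant cells in ESC medium, against 0.32, 0.13 and 0.05 in control cells in ESC medium. Meg3 read 2.06, 1.56 and 1.68 in mutant cells in N2B27, against 0.90, 0.47 and 0.14 in control cells in N2B27. In ESC medium Meg3 read 0.00 and 0.41 in mutant cells, against 0.16, 0.35 and 0.19 in control cells. In N2B27 the groups were apart for both RNAs, and in ESC medium they overlapped. Rian was higher in mutant cells in N2B27 by 1.58 ± 0.18 (adjusted p = 0.00173) and Meg3 by 1.26 ± 0.19 (adjusted p = 0.0057), with differences of 0.01 and -0.02 in ESC medium (adjusted p = 0.996 and 0.983).

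Rtl1, a gene derived from a retrotransposon and needed in placenta and muscle, read 0.70, 0.59 and 0.50 in mutant cells in N2B27, against 0.02, 0.02 and -0.03 in control cells in N2B27. It read 0.01 and 0.28 in mutant cells in ESC medium, against 0.01, 0.06 and 0.11 in control cells in ESC medium. The groups were apart in N2B27 (0.59 ± 0.08, adjusted p = 0.0032) and overlapped in ESC medium (0.08, adjusted p = 0.762). Several miRNA genes of the maternal strand are antisense to Rtl1, and how the array's probes treat strand is not stated in the sources used here, so its value is uncertain. Dlk1, a membrane ligand related to Notch ligands, read -0.31, 0.19 and -0.11 in mutant cells in N2B27, against 0.02, 0.20 and -0.09 in control cells in N2B27. In ESC medium Dlk1 read 0.42 and 0.40 in mutant cells, against 0.44, 0.53 and 0.44 in control cells. Its arrays overlapped between genotypes in N2B27, while in ESC medium both mutant arrays lay below the control arrays, and its differences of -0.12 in N2B27 and -0.06 in ESC medium did not pass the test (adjusted p = 0.676 and 0.912). Dio3, the deiodinase gene at the end of the domain, was higher in mutant cells in N2B27 by 0.59 (adjusted p = 0.0464), a call close to the threshold. It read 0.82, 0.43 and 0.14 in mutant cells in N2B27, against 0.07, -0.15 and -0.31 in control cells in N2B27.

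The array also holds clusters for 40 of the 60 miRNA genes that RefSeq orders between Meg3 and Mirg, a list made after the values were seen. In mutant cells in N2B27 20 of the 40 were higher by limma and none lower, beside 4.1% of all genes higher and 1.64% lower, and the median log2 difference was 0.71. At an unadjusted p under 0.05, 31 were higher and 0 lower, beside 11.7% and 7.68% of all genes. In ESC medium none was called by limma in either direction, with 0 higher and 1 lower at an unadjusted p under 0.05 (7.75% and 10% of all genes) and a median of 0.03. The count in N2B27 was 12 when the spread came from the N2B27 arrays alone and 13 without control array 3. Mir377 read 2.63, 1.91 and 1.52 in mutant cells in N2B27, against -0.08, 0.09 and -0.32 in control cells in N2B27, a difference of 2.12 ± 0.24 (adjusted p = 0.00141). Mir127 read 1.58, 1.44 and 1.45 in mutant cells in N2B27, against 0.09, 0.16 and 0.08 in control cells in N2B27, a difference of 1.38 ± 0.09 (adjusted p = 5.42e-05). The 3 measured small nucleolar RNA genes of the domain were also higher, DQ267102 by 1.29, DQ267101 by 1.07 and AF357341 by 0.60. Labelling of whole transcripts does not separate a mature miRNA from the longer RNA it is cut from, so these values are not levels of mature miRNA. Neighbouring genes that are parts of the same longer RNA would be repeated readings of it. The 40 miRNA genes and the small nucleolar RNA genes are therefore not independent of each other or of Meg3 and Rian. Their counts were not tested against the shares of all genes.

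The mature sequences of the 5 miRNA genes with the largest difference are printed from RefSeq on GRCm38.p6. They lie on the plus strand between miR-380-5p at chr12:109711806-109711827 and miR-377-3p at chr12:109740553-109740574, and capitals mark the seed, bases 2 to 8.
mmu-miR-380-5p: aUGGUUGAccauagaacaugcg
mmu-miR-380-3p: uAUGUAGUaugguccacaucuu
mmu-miR-679-5p: gGACUGUGaggugacucuuggu
mmu-miR-679-3p: aGCAAGGUccuccucacaguag
mmu-miR-300-5p: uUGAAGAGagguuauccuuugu
mmu-miR-300-3p: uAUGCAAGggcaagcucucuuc
mmu-miR-382-5p: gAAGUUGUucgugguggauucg
mmu-miR-382-3p: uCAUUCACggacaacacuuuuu
mmu-miR-377-5p: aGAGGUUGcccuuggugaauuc
mmu-miR-377-3p: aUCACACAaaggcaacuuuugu
No seed is shared among these arms, and the 37 mature sequences of the 20 called genes have 37 different seeds.

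**Figure D3:**
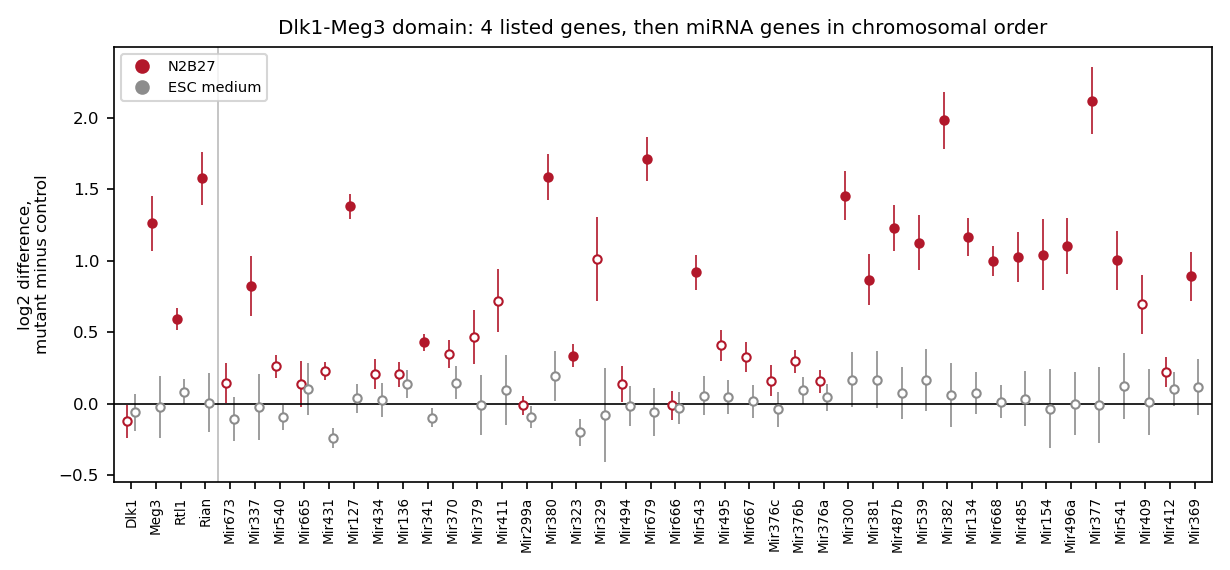
Log2 difference of mutant minus control cells (vertical axis) for the 4 listed genes of the Dlk1-Meg3 domain, left of the grey line, and the 40 measured miRNA genes in chromosomal order, right of it, in N2B27 (red) and ESC medium (grey). Bars are standard errors, and filled points passed the adjusted p. The red points of Meg3, Rtl1 and Rian and of 20 miRNA genes are filled and above 0, while no grey point is filled.

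The 3 measured genes of the Snrpn domain, all paternally expressed and whose human counterparts lie in the Prader-Willi syndrome region, were higher in mutant cells in N2B27. Ndn, necdin, read 1.33, 1.41 and 0.96 in mutant cells in N2B27, against 0.13, 0.25 and 0.00 in control cells in N2B27. In ESC medium Ndn read 0.07 and -0.06 in mutant cells, against -0.30, -0.19 and -0.28 in control cells. Its groups were apart in both media, and the difference passed in N2B27 (1.10 ± 0.11, adjusted p = 0.000945) and not in ESC medium (0.26, adjusted p = 0.329). Magel2, a ubiquitin ligase partner related to Ndn, read 0.98, 1.36 and 0.75 in mutant cells in N2B27, against 0.01, 0.03 and -0.07 in control cells in N2B27. In ESC medium Magel2 read -0.12 and 0.00 in mutant cells, against -0.13, -0.14 and -0.20 in control cells. Its mutant arrays lay above its control arrays in both media. It was higher by 1.04 ± 0.13 in N2B27 (adjusted p = 0.00204) and differed by 0.10 in ESC medium (adjusted p = 0.851). Mkrn3, a ubiquitin ligase gene, read 0.51, 0.12 and 0.40 in mutant cells in N2B27, against -0.04, 0.00 and -0.21 in control cells in N2B27. In ESC medium Mkrn3 read -0.06 and 0.03 in mutant cells, against 0.12, -0.01 and 0.20 in control cells, which overlapped (-0.12, adjusted p = 0.716). The N2B27 difference of 0.43 ± 0.10 (adjusted p = 0.0416) lost its call with the block (adjusted p = 0.0953), after centring each array on its median (0.0589), after quantile normalization (0.0873), without the genes of chromosomes 8, X and Y (0.0701), when the spread came from the N2B27 arrays alone (0.125) and without control array 1 (0.0817), 2 (0.076) or 3 (0.155) or mutant array 1 (0.0971) or 3 (0.0978).

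Peg10, a gene derived from a retrotransposon and needed for placenta, read 0.47, 0.27 and 0.26 in mutant cells in N2B27, against -0.95, -1.06 and -0.66 in control cells in N2B27. It read 0.00 and -0.08 in mutant cells in ESC medium, against 0.08, 0.36 and 0.40 in control cells in ESC medium. The mutant arrays lay above the control arrays in N2B27 and below them in ESC medium. The difference was 1.22 ± 0.12 in N2B27 (adjusted p = 0.00068) and -0.32 ± 0.13 in ESC medium (adjusted p = 0.22). In ESC medium Peg10 was called lower with the array number as a block (-0.42, adjusted p = 0.0142) and with array weights (-0.38, adjusted p = 0.0446). Sgce, which encodes epsilon-sarcoglycan and starts beside Peg10, read 1.12, 0.00 and 0.82 in mutant cells in N2B27, against 0.43, 0.00 and 0.31 in control cells in N2B27. In ESC medium Sgce read -1.07 and -0.70 in mutant cells, against -0.79, -0.58 and -0.69 in control cells. The groups overlapped in both media, with differences of 0.40 (adjusted p = 0.445) and -0.19 (adjusted p = 0.845), and without mutant array 2 Sgce passed in N2B27 (0.72, adjusted p = 0.0281).

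Zdbf2, a zinc finger gene of chromosome 1 with its imprint set by an upstream transcript, read 0.00, 0.44 and 0.01 in mutant cells in N2B27, against -1.29, -0.58 and -0.88 in control cells in N2B27. It read -0.30 and -0.29 in mutant cells in ESC medium, against -0.27, -0.22 and -0.31 in control cells in ESC medium. The groups were apart in N2B27 (1.07 ± 0.17, adjusted p = 0.00627) and overlapped in ESC medium (-0.03, adjusted p = 0.975). The N2B27 call was lost when the spread came from the N2B27 arrays alone (adjusted p = 0.0528). Peg3, a zinc finger gene that regulates growth and maternal behaviour, read 1.195, 0.86 and 1.04 in mutant cells in N2B27, against -0.03, 0.48 and 0.73 in control cells in N2B27, and -0.37 and -0.32 in mutant cells in ESC medium, against -0.41, -0.21 and -0.33 in control cells in ESC medium. In N2B27 the groups were apart and the difference of 0.64 ± 0.16 missed the test (adjusted p = 0.0515). Peg3 passed there without control array 3 (0.81, adjusted p = 0.0293) or mutant array 2 (0.72, adjusted p = 0.0492). It also passed after quantile normalization (0.81, adjusted p = 0.0233) and with array weights (0.55, adjusted p = 0.0222). In ESC medium the groups overlapped (-0.02, adjusted p = 0.978).

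**Figure D4:**
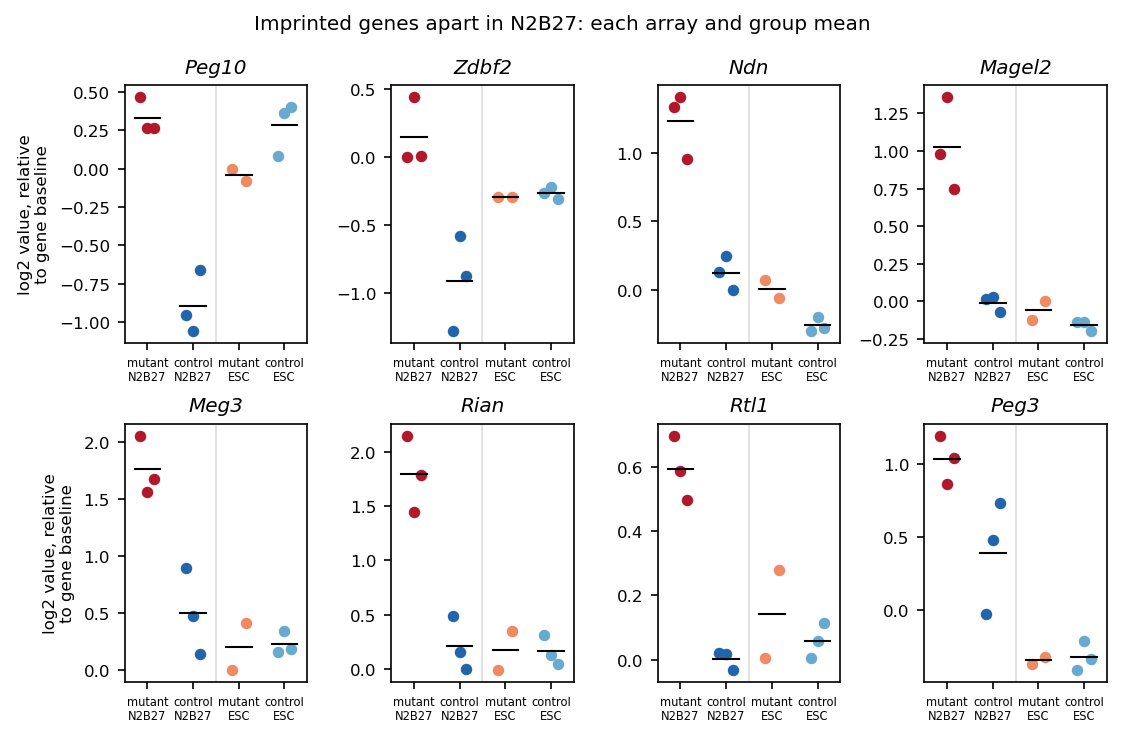
Log2 value relative to each gene's own baseline (vertical axis, 1 panel per gene with its own scale) of 8 imprinted genes whose groups were apart in N2B27. Points are arrays and black lines group means, in the order mutant N2B27, control N2B27, mutant ESC medium and control ESC medium. In each panel the 3 mutant arrays in N2B27 lie above the 3 control arrays in N2B27, and Peg3 alone of the 8 missed the adjusted p there.

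The change of medium moved imprinted genes in both genotypes, at shares nearer to those of all genes. In mutant cells 11 were higher and 5 lower in N2B27 than in ESC medium, 41% of the 39 beside 25.2% of all genes, with 14.9% of all genes higher and 10.3% lower. In control cells 6 were higher and 9 lower, 38.5% beside 26.1% of all genes, with 12.8% of all genes higher and 13.3% lower. The ESC medium arrays and the N2B27 arrays of each genotype are also those of the genotype comparisons, so these counts are not independent of the ones above. Each of the 8 ESC markers was lower in N2B27 in both genotypes.

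Phlda2, Cdkn1c, Mcts2, Ascl2 and Dlk1 were lower in N2B27 than in ESC medium in both genotypes, and Sgce, Calcr, Peg3 and Ndn were higher in both. Phlda2 was lower by -1.55 in mutant cells (adjusted p = 2.5e-05) and -1.70 in control cells (adjusted p = 1.21e-05). Ascl2, a transcription factor of trophoblast, read 0.12, 0.39 and -0.33 in mutant cells in N2B27, against 0.88 and 1.02 in mutant cells in ESC medium, and -0.20, -0.58 and -0.39 in control cells in N2B27, against 0.69, 0.50 and 0.57 in control cells in ESC medium. Its arrays were apart by medium in both genotypes, with differences of -0.89 in mutant cells (adjusted p = 0.00499) and -0.98 in control cells (adjusted p = 0.00171), and the mutant call was lost after quantile normalization (-0.68, adjusted p = 0.051). Calcr, the calcitonin receptor gene of the Peg10 domain, read 0.21, 0.53 and 0.26 in mutant cells in N2B27, against -1.22 and -0.98 in mutant cells in ESC medium, and 0.00, 0.81 and 1.01 in control cells in N2B27, against -0.64, -0.78 and -0.88 in control cells in ESC medium. Calcr was higher by 1.44 in mutant cells (adjusted p = 0.00185) and 1.37 in control cells (adjusted p = 0.00136). Between genotypes it did not pass in N2B27 (-0.27, adjusted p = 0.601), except without control array 1 (-0.57, adjusted p = 0.0404). Dlk1 was lower by -0.49 in mutant cells (adjusted p = 0.0204) and -0.43 in control cells (adjusted p = 0.0224). Its mutant call was lost without mutant ESC array 2 (0.116) or 3 (0.093) or mutant N2B27 array 3 (0.0579), and its control call without control ESC array 1 (0.0508) or 2 (0.0746) or control N2B27 array 1 (0.0653) or 3 (0.0863), each given as an adjusted p.

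In mutant cells Nnat, Rian, Meg3, Magel2 and Rtl1 were higher in N2B27 than in ESC medium, by 2.53, 1.62, 1.56, 1.09 and 0.45, while in control cells their differences of 0.19, 0.05, 0.27, 0.15 and -0.06 did not pass the test. For Nnat in control cells the N2B27 arrays lay above the ESC medium arrays, and the difference passed after quantile normalization (0.75, adjusted p = 0.00725). In control cells Peg10 was lower in N2B27 by -1.17 (adjusted p = 0.000111) and Zdbf2 by -0.65 (adjusted p = 0.016), where in mutant cells they differed by 0.37 and 0.45 (adjusted p = 0.0627 and 0.116). Slc38a4, an amino acid transporter gene, read -0.03, -0.30 and -0.18 in control cells in N2B27, against 0.91, 0.22 and 0.30 in control cells in ESC medium (-0.65, adjusted p = 0.0289). In mutant cells Slc38a4 read 0.18, -0.38 and -0.29 in N2B27, against -0.09 and 0.04 in ESC medium, which overlapped. Tssc4, a splicing factor gene of the Kcnq1 domain, read -0.40, -0.29 and -0.25 in control cells in N2B27, against 0.37, 0.27 and 0.08 in control cells in ESC medium (-0.56, adjusted p = 0.00862). In mutant cells Tssc4 read -0.36, 0.19 and -0.09 in N2B27, against 0.02 and 0.08 in ESC medium, which overlapped. Copg2 and Mest were higher in N2B27 in control cells by 0.97 (adjusted p = 0.00109) and 0.66 (adjusted p = 0.00428), and Inpp5f, a phosphatase gene of which 1 variant is imprinted, in mutant cells by 0.31 (adjusted p = 0.0263).

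Single arrays decided several of these medium calls, given here by the adjusted p without the array. In control cells Zdbf2 lost its call without ESC array 2 (0.0522), and Slc38a4 without ESC array 1 (0.0822) or N2B27 array 2 (0.094) or 3 (0.0759). Sgce, higher by 0.94, lost it without ESC array 1 (0.0566) or N2B27 array 1 (0.063) or 3 (0.056). Ndn, higher by 0.38 (adjusted p = 0.03), lost it without ESC array 1 (0.0882), 2 (0.0554) or 3 (0.0777) or N2B27 array 1 (0.0772) or 2 (0.107). In mutant cells Rtl1 lost its call without ESC array 2 (0.0559), and Inpp5f without ESC array 2 (0.164) or 3 (0.0843) or N2B27 array 1 (0.0623) or 3 (0.0611). Mkrn3, higher by 0.36 (adjusted p = 0.046), lost it without ESC array 2 (0.239) or 3 (0.121) or N2B27 array 1 (0.119) or 3 (0.123). With the array number as a block, Ppp1r9a, the gene of the actin-binding protein neurabin, passed in control cells (0.41, adjusted p = 0.0134, against 0.0713 without the block).

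Whether the genotype difference itself depended on the medium was tested as an interaction, taken as the N2B27 difference less the one in ESC medium. Nnat (2.33 ± 0.19, adjusted p = 0.000681), Rian (1.57 ± 0.27, adjusted p = 0.0202), Peg10 (1.55 ± 0.18, adjusted p = 0.00363), Magel2 (0.94 ± 0.19, adjusted p = 0.0352) and Ndn (0.84 ± 0.17, adjusted p = 0.0352) passed, 12.8% of the 39 beside 2.12% of all genes, with 1.57% of all genes positive and 0.552% negative. All 5 interactions were positive, and none of the 39 was negative past the adjusted p by limma, with 13 positive and 2 negative at an unadjusted p under 0.05 (8.9% and 4.77% of all genes). Meg3 (1.29, adjusted p = 0.0539), Zdbf2 (1.09, adjusted p = 0.0575) and Rtl1 (0.51, adjusted p = 0.0627) missed it, so that a dependence on medium was not shown for them. Meg3 lay near the threshold. It passed after quantile normalization (1.52, adjusted p = 0.0391) and with array weights (1.37, adjusted p = 0.00584). Meg3 also passed without control N2B27 array 1 (1.48, adjusted p = 0.0251) or mutant N2B27 array 2 (1.39, adjusted p = 0.0419). The calls of Nnat and Peg10 held under every alternative, with Nnat at 1.63 after quantile normalization, while Magel2 and Ndn lost theirs after quantile normalization (adjusted p = 0.152 and 0.0688) and with a trended and robust prior (0.0568 and 0.0796). Rian lost its call without control ESC array 2 (adjusted p = 0.0554), mutant ESC array 2 (0.119), or control N2B27 array 2 (0.0548) or 3 (0.0564). Magel2 lost it with the block (adjusted p = 0.0832) and without each array but mutant N2B27 arrays 2 and 3 (0.0518 to 0.165), and Ndn without each array but control ESC array 1 and mutant N2B27 arrays 2 and 3 (0.0544 to 0.148). For Igf2, Phlda2, Cdkn1c, Grb10, Plagl1, Impact and Mcts2 the interaction lay between -0.36 (Grb10) and 0.34 (Impact) and did not pass the test, which does not show that their genotype differences were equal in the media.

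Of 32 further imprinted genes measured, from a list of 39, Sfmbt2, Gab1 and Dio3 were higher and H13 lower in mutant cells in N2B27, and Gatm, H13, Pon2 and Osbpl5 were lower in mutant cells in ESC medium. That is 12.5% of the 32 in each medium, beside 5.74% of all genes in N2B27 and 6.14% in ESC medium. Sfmbt2, a Polycomb-related gene expressed from the paternal allele in placenta, was higher by 1.11 in N2B27 (adjusted p = 0.00311) and Gab1, a signalling adaptor, by 0.67 (adjusted p = 0.0159). Gab1 lies on chromosome 8, whose genes were shifted as a whole in these mutant cells. Gatm, which encodes an enzyme of creatine synthesis, differed by -1.11 in ESC medium (adjusted p = 0.0215) and by 0.07 in N2B27 (adjusted p = 0.924). Pon2, a paraoxonase gene near Peg10, and Osbpl5, an oxysterol-binding protein gene near Phlda2, were lower by -0.60 and -0.38 in ESC medium (adjusted p = 0.0295 and 0.00996), and their interactions of 1.06 and 0.57 passed (adjusted p = 0.0198 and 0.0143). The 4 calls in N2B27 became 2 without the genes of chromosomes 8, X and Y, a setting that leaves out Gab1 itself. The 4 in ESC medium became 2 without control array 2 or 3.

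Blcap, Ppp1r9a, Asb4, Kcnq1, Cd81, Usp29, Zim1, Igf2r, Airn, Nap1l5 and Rasgrf1 were called in none of the 5 comparisons. Their genotype differences ran from -0.46 (Igf2r) to 0.23 (Nap1l5) in N2B27 and from -0.32 (Igf2r) to 0.18 (Nap1l5) in ESC medium. Blcap, Ppp1r9a, Usp29, Igf2r, Airn and Nap1l5 each passed in a genotype or medium comparison under at least 1 alternative. Airn, the noncoding RNA that silences Igf2r on the paternal chromosome, differed by 0.13 in N2B27 and -0.04 in ESC medium. The median SD of the 39 imprinted genes among arrays of 1 group was 0.148 in mutant cells in N2B27, 0.129 in control cells in N2B27, 0.073 in mutant cells in ESC medium and 0.101 in control cells in ESC medium, beside 0.131, 0.081, 0.0601 and 0.077 over all genes in the same groups.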

How the data were processed

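Values were deposited for 11 arrays as log2 values per transcript cluster, made by the authors with RMA (background correction, quantile normalization, probe summary). The submitters' processing notes name Affymetrix Expression Console 1.2 for this step. Base 2 is taken from what RMA normally writes, since the labels do not state it. The 28815 clusters were centred on a baseline of their own by a step not described in the labels, and 55.8% of them have an array at exactly 0. Brightness is therefore lost, and precision is limited by how few arrays each group has.

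Clusters with 1 symbol in the platform annotation (21780) were used and averaged per gene, giving 19935 genes, of which 18937 have 1 cluster. Names were matched to the RefSeq gene table of GRCm38.p6 by Entrez identifier. The build behind the array design was not stated, so only names and gene order were taken from that table.

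The fit in limma 3.58.1 (R 4.3.3) had 4 group means over all 11 arrays, 7 residual degrees of freedom and empirical Bayes moderation. The 5 comparisons were both genotype differences, both medium differences and their interaction, each two-sided with Benjamini-Hochberg adjustment over all 19935 genes, called at an adjusted p under 0.05. The fit was tested on simulated data drawn independently for each array, which cannot speak for arrays that deviate together. Alternatives were median centring, quantile normalization, leaving out chromosomes 8, X and Y, clusters kept apart, a trended and robust prior, array weights, only the groups compared, the array number as a block, and leaving out each array. The quantile normalization was applied to values that RMA had already normalized and that were then centred. It moved the Nnat difference in ESC medium from 0.80 to 1.53, and how far it distorts differences was not tested. Arrays of the same number deviated together in the N2B27 genotype comparison (correlations over genes 0.256, 0.43 and 0.158) and in the medium comparison of control cells (0.138, 0.181 and 0.131). These correlations were above a threshold of 0.1, so the numbers were taken to pair these arrays. The calls still come from the fit without pairing, and the block is given as an alternative.

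The members and lists were chosen with earlier results of these data known. Values in every array are given for the 26 of 28 called members with the largest called difference, and the others by counts and ranges. Alleles, domains and DMRs come from background knowledge.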

Additional observations from a re-analysis of the deposited data

Results flagged for a closer look

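For 5 imprinted genes the genotype difference in N2B27 and that in ESC medium differed by the limma interaction test. Nnat was higher in mutant cells by 3.13 in N2B27 and 0.80 in ESC medium, an interaction of 2.33 on the log2 scale (adjusted p = 0.000681). Rian differed by 1.58 in N2B27 and 0.01 in ESC medium, an interaction of 1.57 (adjusted p = 0.0202). Peg10 differed by 1.22 in N2B27 and -0.32 in ESC medium, an interaction of 1.55 (adjusted p = 0.00363). Magel2 differed by 1.04 in N2B27 and 0.10 in ESC medium, an interaction of 0.94 (adjusted p = 0.0352). Ndn differed by 1.10 in N2B27 and 0.26 in ESC medium, an interaction of 0.84 (adjusted p = 0.0352). Only the calls of Nnat and Peg10 held under every alternative, and those of Rian, Magel2 and Ndn were each lost under several.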

How the results depend on the processing

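The value of an imprinted gene in a comparison was followed where it was called under at least 1 setting. That choice, with most arrays shared between settings, made a change of direction unlikely from the start. Each of these 98 values was recomputed under the alternatives, giving 1376 values. None of them turned its direction, 1196 stayed on the same side of the threshold, 117 lost a call and 63 gained one. Calls held under every alternative for 13 of 18 genes in the N2B27 genotype comparison, 5 of 9 in ESC medium, 11 of 16 for the medium in mutant cells, 10 of 15 in control cells and 2 of 5 interactions. The count of interactions was 3 with a trended and robust prior, 11 with array weights and 2 to 7 when 1 array was left out, lowest without control ESC array 2, mutant ESC array 2 or control N2B27 array 3 (2 each) and highest without mutant N2B27 array 2 (7). Leaving out 1 array gave 14 to 19 genes for the N2B27 genotype comparison, 6 to 9 for ESC medium, 12 to 21 for the medium in mutant cells and 12 to 14 in control cells. With the replicate block the counts were 16, 13, 13 and 16, and 4 interactions. Calls then also changed between genotypes in ESC medium, where Ascl2 and Nap1l5 were gained as higher and Peg10 and Slc38a4 as lower. In mutant cells by medium Igf2 was gained, and Dlk1, Inpp5f, Mkrn3 and Rtl1 were lost. In those 2 comparisons only 2 pairs exist (correlations 0.0365 and 0.284, 0.215 and 0.266). Both correlations by medium in mutant cells were above the threshold of 0.1. With only 2 pairs the numbers were not taken to pair arrays in either comparison, and a pairing there is not excluded. Over all genes the count in ESC medium was 1224, and 304 to 3570 under alternatives. In N2B27 it was 1144, and 397 to 2882. By medium it was 5018 in mutant cells, and 2720 to 7689, and the interaction count was 422, and 59 to 1782. A filter on dim probes was not run, since centred values carry no brightness.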

Other observations

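Genes that keep or erase imprints were read from a list of 27, all measured. In mutant cells in N2B27 Zfp42, Dnmt3l and Dppa3 were higher by limma, and in ESC medium Dppa3 and Zfp42. That is 11.1% and 7.41% of the list, beside 5.74% and 6.14% of all genes. Zfp42 lies on chromosome 8, whose genes were shifted as a whole in these mutant cells. Dnmt3l, a cofactor of de novo DNA methylation, read 0.00, -0.29 and -0.77 in mutant cells in N2B27, against -1.48, -2.69 and -2.17 in control cells in N2B27, a log2 difference of 1.76 (adjusted p = 0.00795). Dppa3, which protects maternal methylation in the zygote, read -0.05, -0.23 and 0.03 in mutant cells in N2B27, against -0.71, -0.81 and -0.70 in control cells in N2B27. In ESC medium Dppa3 read 0.83 and 1.30 in mutant cells, against 0.18, 0.05 and 0.31 in control cells. Its differences were 0.66 in N2B27 (adjusted p = 0.0136) and 0.88 in ESC medium (adjusted p = 0.0045). Zfp57, which holds methylation at imprinted regions, differed by 0.53 in N2B27 and 0.48 in ESC medium without passing the test (adjusted p = 0.152 and 0.278).

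The change of medium moved more of this list. In N2B27 4 genes were higher and 11 lower than in ESC medium in mutant cells, and 4 were higher and 14 lower in control cells, 55.6% and 66.7% of the list beside 25.2% and 26.1% of all genes. Zfp57 was lower in N2B27 by -1.74 in mutant cells (adjusted p = 0.00029) and -1.79 in control cells (adjusted p = 0.000158), and Trim28, its corepressor partner, by -0.54 and -0.66 (adjusted p = 0.00862 and 0.00162). The genotype count in ESC medium ran from 1 after quantile normalization to 9 with the replicate block, and that in N2B27 was 5 with the block.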
